A study of Mus musculus with 143 samples.

Results

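The regions described here lie around the genes of the T cell receptor, its coreceptors and the Rag recombinase, and were measured by capSTARR-seq, a reporter assay. Of 12897 captured regions, 38 had their start inside 1 of 6 windows of the mouse build mm9. The windows were chr14:54600000-55000000 for Tcra, chr6:41300000-41650000 for Tcrb, chr9:44650000-44950000 for Cd3d, Cd3e and Cd3g, chr6:124700000-124950000 for Cd4, chr6:71200000-71500000 for Cd8a and Cd8b1, and chr2:101300000-101700000 for Rag1 and Rag2. They held 5, 5, 9, 7, 4 and 8 regions. The rule that picks the regions uses position alone. No gene names accompany the regions in the deposited tables, and no mm9 annotation was used here. A region is therefore named by its window and coordinates, and whether it lies in an exon, an intron or between genes was not determined.

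The study compared chromatin, RNA and chromosome contacts in mouse T cells, and 3 of its 143 samples make up the reporter experiment: RNA replicates 1 and 2 and 1 input library. All come from P5424 cells, which the labels give as a mouse T cell line. P5424 is known as an immature thymocyte line from a mouse lacking Rag1 and p53, which the labels do not mention. The experiment holds 1 cell line, with no treatment or second genotype, so it gives no comparison between cell types or conditions. The labels do not say whether the RNA replicates are separate transfections. Their spread may be technical, and p-values measure only such spread. For each region it was estimated partly from other regions of like level, not from its own replicates alone.

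In a T cell, the alpha and beta chains encoded by Tcra and Tcrb recognise antigen, and the CD3 chains carry the signal into the cell. CD4 and CD8 bind the major histocompatibility molecules and mark the helper and cytotoxic lineages. Rag1 and Rag2 form the enzyme that joins the V, D and J segments of the receptor genes in immature thymocytes. These loci are known for distal control: an enhancer lies downstream of the constant segments of Tcra and of Tcrb, Cd4 has a silencer in its first intron, and Cd8a and Cd8b1 share a cluster of stage-specific enhancers. In capSTARR-seq each captured fragment sits on a plasmid downstream of a minimal promoter, and a fragment with enhancer activity raises its own transcript. The assay reads activity away from the native chromatin, so silencers and promoter activity are not its readout.

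Activity is given as fold: RNA over input, each in FPKM (fragments scaled by region length and library size) with 1 added. A fold of at least 1.5 in both replicates is called active, and at least 3 in both strongly active. Captured control regions of the class Random had median folds of 0.657 and 0.679 in RNA replicates 1 and 2. The test across all 12897 regions, limma with Benjamini-Hochberg adjustment, therefore asked whether a region lay above or below the Random median, called the Random centre below. It passed at an adjusted p under 0.05 and a fold over that centre of at least 1.5. All 38 regions were 400 bp long and all were tested, with no filter on low values. The whole table held 8999732, 9583168 and 7199798 reads in RNA replicate 1, replicate 2 and input. The 38 regions held 38 to 2912 input reads each, with a median of 369, against 298 over all regions.

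Most captured regions at these loci were not active by this rule. Active regions numbered 3 of 38, or 7.89%, against 8.51% of all regions, and strongly active ones 2 of 38, or 5.26%, against 0.985%. These 3 were 1 region each in the Tcra, Tcrb and Cd8a/Cd8b1 windows. The last 2 of them belong to the class Add_Ctl, which has only 3 regions in the whole experiment. All 3 regions of that class were active and passed the limma test, so these 2 match their class. The sources used here do not say what Add_Ctl stands for or how its regions were picked. Without that class, 1 of 36 regions was active, or 2.78%, and this region was also the only strongly active one. In replicate 1 alone 6 of 38 reached 1.5 (15.8%, against 13.6% of all regions), and in replicate 2 alone 4 (10.5%, against 14.6%). The authors' deposited class called 3 of 38 active in replicate 1 (4.21% of all regions), 3 in replicate 2 (4.34%) and 2 in both (2.7%). The windows of Cd3d, Cd3e and Cd3g, of Cd4, and of Rag1 and Rag2 held no active region among their 24. In the limma test 6 of 38 regions passed above the Random centre, or 15.8%, against 13.5% of all regions, a share near the background. All 6 had a fold above 1 in both replicates, which the minimum of 1.5-fold over the Random centre nearly requires of the mean. Against the input itself, without centring, only the Tcra and Tcrb regions with folds above 5 passed (limma, adjusted p = 0.0021 and 0.0026), where 2.61% of all regions did. In a separate setting, centred on Random but without the variance trend, none of the 12897 regions passed. Below the centre 0 of 38 passed, against 0.442% of all regions. At an unadjusted limma p under 0.05 there were 10 above and 2 below, against 22.1% and 1.73% of all regions. The 2 below were an overlapping pair at Rag1/Rag2, 1 sequence in effect.

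**Figure D1:**
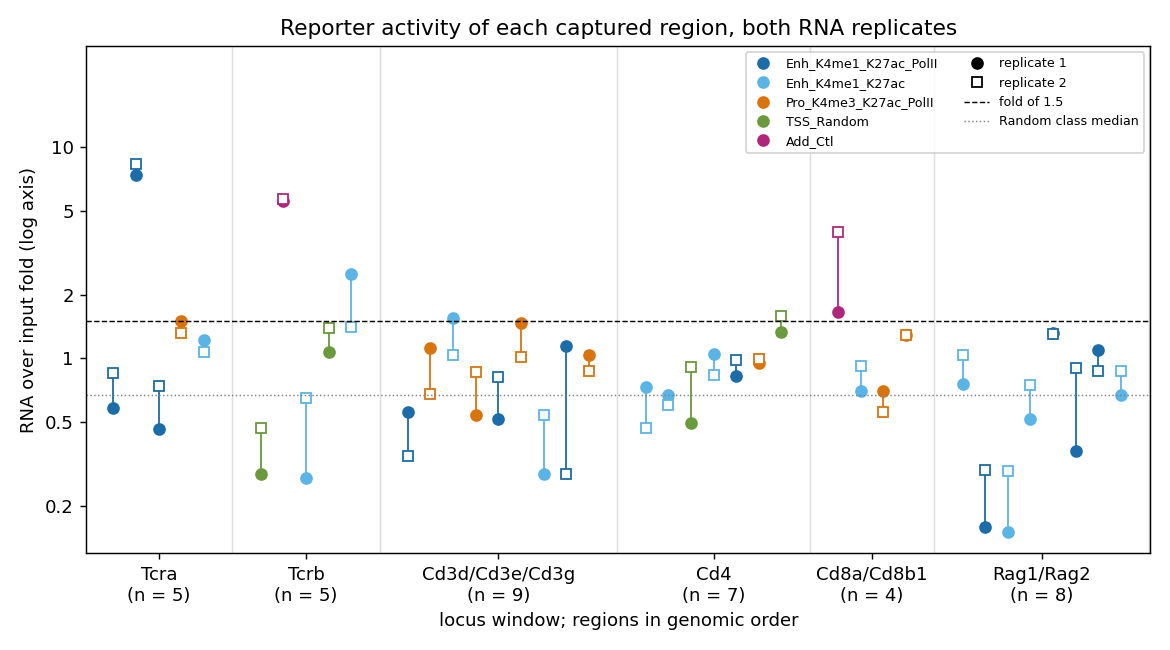
RNA over input fold of each of the 38 regions on a log axis, in genomic order within each window; filled circles are replicate 1, open squares replicate 2, and colours give the region class. The highest pairs are a Tcra region at 7.38 and 8.34 and a Tcrb region at 5.56 and 5.67, and no region of the Cd3, Cd4 or Rag windows lies above 1.5 in both replicates.

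The Tcra window held the most active region of all windows. Tcra encodes the alpha chain, whose rearrangement comes late in the thymus. The region chr14:54846975-54847374, of class Enh_K4me1_K27ac_PolII, had 351.8 and 398.0 FPKM in RNA replicates 1 and 2 against 46.8 in the input. These values stood on 5615, 6623 and 621 reads. Both RNA libraries were thus far above the input, at folds of 7.38 and 8.34. Its mean log2 fold was 2.97 ± 0.13 (SD, n = 2), rank 13 of 12897 and rank 11 of 7600 in its class. It lay 11.7-fold above the Random centre (95% interval 9.06 to 15.2; limma, adjusted p = 2.4e-09). The class name is read here as an enhancer with H3K4me1, H3K27ac and RNA polymerase II, marks whose cells of origin the tables do not state.

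The next captured region, chr14:54851125-54851524, of the same class, starts 4.15 kb further along and was the lowest of the window. It had 5.83 and 9.92 FPKM in RNA replicates 1 and 2 and 13.7 in the input, below the input in both. The fold of the active region exceeded that of this neighbour 15.9 times in replicate 1 and 11.3 times in replicate 2. Relative to the Random centre the neighbour stood at 0.878-fold (0.327 to 2.36), an interval that does not meet that of the active region. On the other side the nearest captured region was 80.9 kb away. The 4 regions other than the active one had folds of 0.464 to 1.51 in replicate 1 and 0.741 to 1.32 in replicate 2, and none of them passed the limma test (adjusted p 0.505 to 0.977).

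The highest promoter-class region of the 6 windows was also at Tcra, chr14:54980026-54980425, of class Pro_K4me3_K27ac_PolII. It had 4.82 and 4.09 FPKM in RNA replicates 1 and 2 over 2.87 in the input, with folds of 1.51 and 1.32. With 38 input reads it was the least covered of the 38 regions. Its fold over the Random centre, 2.11 (0.633 to 7.02), did not pass (limma, adjusted p = 0.505).

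At Tcrb, the gene of the beta chain and the first of the 2 chains to be rearranged, 1 of 5 regions was active. It was the Add_Ctl region chr6:41504249-41504648, with 263.7 and 269.1 FPKM in the RNA libraries and 46.6 in the input. These are 4209, 4478 and 618 reads. Both folds, 5.56 and 5.67, were high and close to each other, and the mean log2 fold was 2.49 ± 0.02 (SD, n = 2). It ranked 34 of 12897 and lay 8.41-fold above the Random centre (6.37 to 11.1; limma, adjusted p = 1.6e-08). Its input level matched that of the active Tcra region, 46.6 against 46.8 FPKM. The captured neighbours stood 108.353 and 12.876 kb away. Their folds were 19.5 and 20.4 times lower in replicate 1, and 12.2 and 8.74 times lower in replicate 2.

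Another Tcrb region passed the limma test on uneven replicates. The Enh_K4me1_K27ac region chr6:41604925-41605324 had 39.5 and 21.8 FPKM in RNA replicates 1 and 2 against 15.2 in the input. Replicate 1 was the higher, with folds of 2.51 and 1.41, so it was not active in both. It stood 2.82-fold above the Random centre (1.40 to 5.67; limma, adjusted p = 0.047). With a pseudocount of 0.1 FPKM this call was lost (adjusted p = 0.075), as it was when centred on all regions (adjusted p = 0.211). The authors' deposited class called it active in replicate 1 and inactive in replicate 2.

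The Tcrb window also held 2 of the 4 TSS_Random regions among the 38, a class whose selection the sources used here do not describe. The region chr6:41395896-41396295 was low in both replicates, with 6.39 and 11.1 FPKM against 24.96 in the input, folds of 0.285 and 0.467. Its mean log2 fold was the lowest of the window, and it did not pass (limma, adjusted p = 0.460). The region chr6:41586204-41586603 had 42.9 and 56.1 FPKM against 39.8 in the input, folds of 1.07 and 1.40. It stood 1.84-fold above the Random centre (1.15 to 2.94) and did not pass either (adjusted p = 0.088).

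The 9 regions around Cd3d, Cd3e and Cd3g, which encode the delta, epsilon and gamma signalling chains, included none that was active. None passed the limma test (smallest adjusted p = 0.111), and 2 had an unadjusted p under 0.05. In the gene order of RefSeq (build GRCm38) Cd3g, Cd3d and Cd3e follow one another between Ube4a and Mpzl2. The highest mean was that of the Enh_K4me1_K27ac region chr9:44714025-44714424, with 54.3 and 35.7 FPKM in the RNA libraries over 34.5 in the input. Its folds were 1.56 and 1.03, so only replicate 1 reached 1.5. The lowest mean was that of the Enh_K4me1_K27ac region chr9:44870675-44871074, with 1.63 and 4.03 FPKM over 8.30 and folds of 0.283 and 0.541. The 4 promoter-class regions of this window lay between 0.541 and 1.46 in replicate 1 and between 0.679 and 1.01 in replicate 2. The Cd3 window held the region whose replicates differed most, chr9:44935225-44935624, chosen here after its values were seen. It had 60 and 3 RNA reads over 42 input reads, for folds of 1.14 and 0.283, and did not pass (limma, adjusted p = 0.941).

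At Cd4, the coreceptor of helper T cells, 1 of 7 regions passed the limma test and none was active in both replicates. The region that passed was the TSS_Random region chr6:124881206-124881605. It had 294.2 and 347.4 FPKM in RNA replicates 1 and 2 against 219.6 in the input, on 2912 input reads, the most of the 38 regions. Its folds of 1.34 and 1.58 were moderate, and only replicate 2 reached 1.5. Over the Random centre it stood at 2.18-fold (1.73 to 2.74; limma, adjusted p = 9.0e-05). Without centring its adjusted p was 0.165. The 4 enhancer-class regions of the window had folds of 0.673 to 1.05 in replicate 1 and 0.469 to 0.983 in replicate 2, and none passed (limma, adjusted p 0.444 to 0.979). The lowest of these by mean log2 fold was chr6:124700425-124700824, with 11.5 and 7.03 FPKM over 16.1 in the input and folds of 0.731 and 0.469. The other TSS_Random region, chr6:124838039-124838438, had 1.504 and 3.61 FPKM over 4.07 in the input, on 54 input reads, and stood at 1.003-fold of the centre (0.278 to 3.62).

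Around Cd8a and Cd8b1, which encode the 2 chains of the CD8 coreceptor, 2 of 4 regions passed. The Add_Ctl region chr6:71319404-71319803 had 37.7 and 91.5 FPKM in RNA replicates 1 and 2 against 22.3 in the input. Its folds of 1.66 and 3.96 were both above 1.5, but differed by 2.39 times, and it ranked 1232 in replicate 1 and 82 in replicate 2. Of all regions, 12.9% differed by over 2-fold between replicates. It stood 3.84-fold above the Random centre (2.07 to 7.12; limma, adjusted p = 0.0039). The SD of its 2 log2 folds was 0.89. Its limma standard error, an unlike measure taken for RNA minus input and drawing on other regions, was 0.418. That error was 0.634 without the variance trend. In the authors' deposited class this region was inactive in replicate 1 and active in replicate 2. That class begins at folds of 2.12 and 2.18 in the authors' deposited tables of replicates 1 and 2, so the replicates fell on either side.

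The promoter-class region chr6:71443776-71444175 passed with almost equal replicates. It had 120.9 and 121.6 FPKM in the RNA libraries against 93.7 in the input, folds of 1.287 and 1.295. It was 1.93-fold above the Random centre (1.42 to 2.64; limma, adjusted p = 0.0050), but centred on all regions it did not pass (adjusted p = 0.113). The other promoter-class region of the window, chr6:71375676-71376075, was the lowest such region in the 6 windows by mean log2 fold. It had 88.2 and 69.7 FPKM over 126.2, below the input in both, with folds of 0.701 and 0.556. The 4th region of the window, an Enh_K4me1_K27ac region 7.621 kb beyond the Add_Ctl region, had folds of 0.700 and 0.916.

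The Rag1 and Rag2 window, with the genes of the recombinase, held 8 regions, all of enhancer classes, of which 4 belong to Enh_K4me1_K27ac and 4 to Enh_K4me1_K27ac_PolII. None was active and none passed the limma test. Of the 38 regions, 3 had a fold under 0.5 in both replicates, or 7.89%, against 6.79% of all: the low Tcrb region above and 2 here. These 2 had the lowest mean log2 folds of the 38. They overlap by 350 of their 400 bases and so share most of their reads, and the 7.89% counts both. The Enh_K4me1_K27ac region chr2:101403225-101403624 had 4.57 and 9.80 FPKM in RNA replicates 1 and 2 against 35.9 in the input, folds of 0.151 and 0.293. Its partner from 101403175 had folds of 0.160 and 0.298 and is of the other class. Both libraries were far below the input, with 73 and 163 RNA reads over 476 input reads for the former. That region stood at 0.315-fold of the Random centre (0.125 to 0.795), rank 12813 of 12897, and did not pass (limma, adjusted p = 0.1003). The partner gave an adjusted p of 0.104. Both passed as lower when only regions with at least 100 input reads were tested (adjusted p = 0.038 and 0.039) and when the input was taken as free of error (0.0026 and 0.0026). They are 1 sequence in effect and not separate evidence.

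The other 6 Rag regions had folds of 0.364 to 1.32 in replicate 1 and 0.750 to 1.30 in replicate 2. The highest was the Enh_K4me1_K27ac_PolII region chr2:101533075-101533474, with 8.21 and 8.05 FPKM over 5.96 in the input and folds of 1.323 and 1.301. On 79 input reads it stood 1.97-fold above the Random centre (0.695 to 5.56) and did not pass (limma, adjusted p = 0.480).

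**Figure D2:**
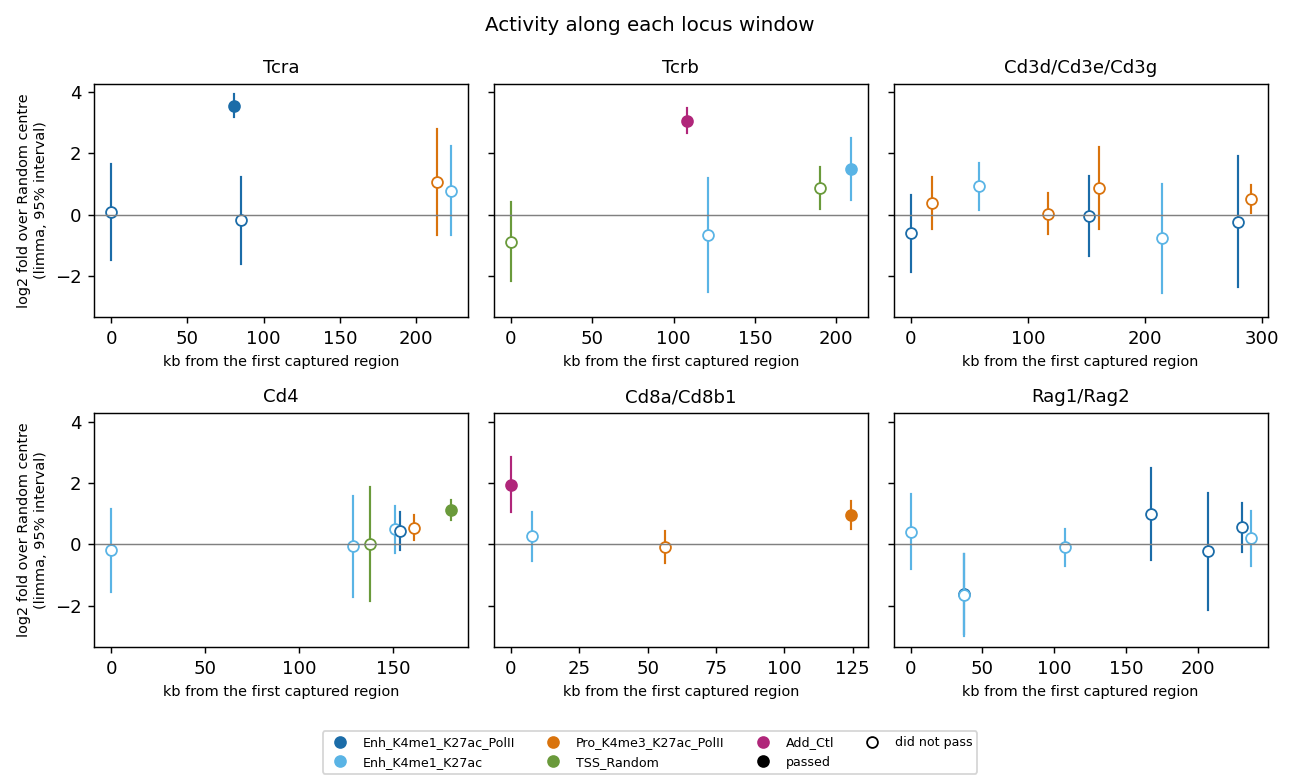
Log2 fold over the Random centre by limma, with its 95% interval, against distance in kb from the first captured region of each window; filled points passed the test and open points did not. Each high point at Tcra and Tcrb has a neighbour whose interval does not meet its own, and the overlapping pair at Rag1/Rag2 is drawn almost on 1 spot.

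The windows overlapped widely in their levels. The median of the mean log2 fold was 0.29 at Tcrb, 0.20 at Tcra, 0.02 at Cd8a/Cd8b1, -0.15 at Cd4, -0.54 at Rag1/Rag2 and -0.55 at Cd3. The Tcrb and Cd8a/Cd8b1 medians each include 1 Add_Ctl region. At Tcrb the mean log2 folds of the other regions were -1.46, -1.25, 0.29 and 0.91. At Cd8a/Cd8b1 they were -0.68, -0.32 and 0.37. Both medians would thus be lower without Add_Ctl. The Rag1/Rag2 median counts the overlapping pair as 2 regions, and was -0.28 over the other 6. The order of the windows changed with the replicate. In replicate 1 the medians were 0.29 at Tcra, 0.10 at Tcrb, 0.056 at Cd3, -0.07 at Cd8a/Cd8b1, -0.28 at Cd4 and -0.77 at Rag1/Rag2. In replicate 2 they were 0.48 at Tcrb, 0.12 at Cd8a/Cd8b1, 0.10 at Tcra, -0.14 at Cd4, -0.20 at Rag1/Rag2 and -0.29 at Cd3. Cd3 thus stood above 3 other windows in replicate 1 and below all of them in replicate 2, and both of its replicate medians lay above the median of its regions' means. Tcra and Tcrb were above Cd4, Rag1/Rag2 and Cd3 in both replicates, with the Add_Ctl region counted at Tcrb. Tcra fell below Cd4 with at least 100 input reads (-0.15 against -0.10) and in windows shortened by 25 kb (-0.51 against -0.12). The order was not tested, and each window has few regions. Over all 38 regions the median was -0.26, against -0.25 over all 12897. Without the 2 Add_Ctl regions it was -0.35. By replicate, the median without them was -0.43 and -0.20, against -0.23 and -0.21 over all regions. The 38 included 20 regions below the input in both replicates, or 52.6%, against 50.8% of all regions, and 12 above it in both, or 31.6%, against 27%.

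The make-up of the windows by class differed from that of the capture. Among the 38 there were 11 Enh_K4me1_K27ac_PolII regions (28.9% against 58.9% of all), 13 Enh_K4me1_K27ac regions (34.2% against 20.5%) and 8 promoter-class regions (21.1% against 8.53%). No region of Random or Enh_K4me1 lay in the windows. Active regions were 1 of the 11 in Enh_K4me1_K27ac_PolII (8.86% in the whole class), 0 of the 13 in Enh_K4me1_K27ac (5.22%), 0 of the 8 promoter-class regions (16.8%) and 0 of the 4 TSS_Random regions (14.4%). In limma 1 of the 8 promoter-class regions passed, against 39.3% of the class, and 1 of the 4 TSS_Random regions, against 35.2%. The 2 Add_Ctl regions were active and passed, against 100% of their class for both. With so few regions these counts are given as a description. The 8 promoter-class regions had median log2 folds of 0.11 and -0.10 in replicates 1 and 2, against 0.067 and 0.073 for the class, so they lay above it in one and below it in the other. For the 11 Enh_K4me1_K27ac_PolII regions the medians were -0.78 and -0.23, against -0.22 and -0.21, so they were well below their class in replicate 1 and close to it in replicate 2.

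**Figure D3:**
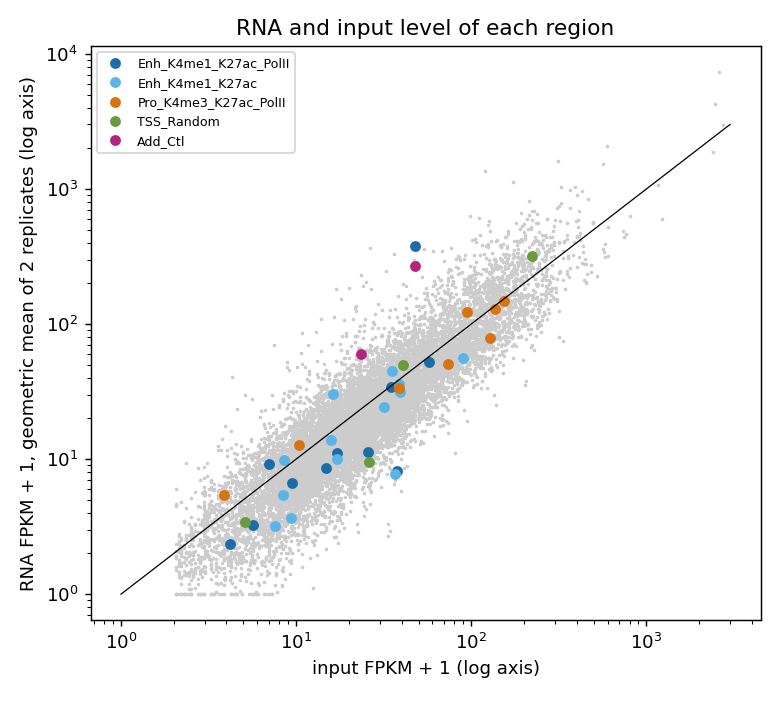
RNA level (geometric mean of FPKM + 1 over 2 replicates) against input FPKM + 1, both on log axes, with all 12897 regions in grey, the 38 coloured by class and a line where RNA equals input. The active Tcra and Tcrb regions sit at almost the same input level, 46.8 and 46.6 FPKM, and well above the line.

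Precision varied with depth. With all regions divided by input into quintiles, 11 of the 38 fell in the lowest and 8 in the highest. The standard error of the limma log2 fold ranged from 0.157 to 0.474 for the 6 regions that passed and from 0.189 to 1.004 for the 32 that did not. A missing call in the thinly covered regions is therefore no sign of inactivity. Of the 38, 4 differed by over 2-fold between replicates, or 10.5%, against 12.9% of all regions, and 3 of these 4 were in the lowest input quintile. Replicate 2 gave the higher fold in 23 of the 38, or 60.5%, against 51.3% of all regions, among them 6 of the 8 at Rag1/Rag2. Across the 38 regions the log2 folds of the replicates had a Pearson r of 0.804 and a Spearman rho of 0.751, against 0.642 and 0.641 over all regions. These are descriptions across regions that share libraries and 1 input. The rho of log2 fold with input FPKM was 0.237 over the 38 and 0.078 over all.

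**Figure D4:**
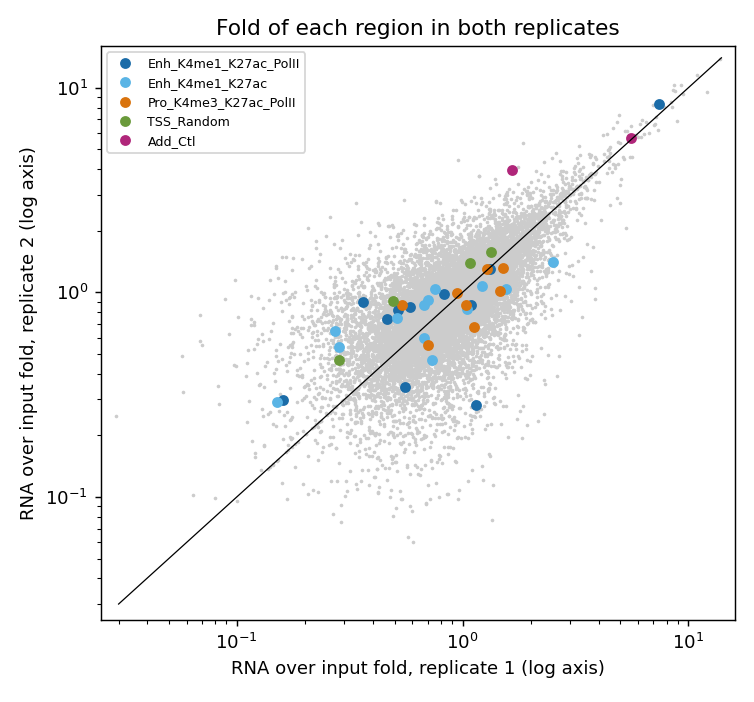
Fold in replicate 2 against fold in replicate 1, both on log axes, with all 12897 regions in grey, the 38 coloured by class and a line of equality. The Tcrb active region lies almost on the line and the Tcra one slightly above it, at 7.38 and 8.34. The Add_Ctl region at Cd8a/Cd8b1 lies further above the line, at 1.66 and 3.96.

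Captured regions were sparse at these loci. They covered 0.5% of the Tcra window, 0.571% at Tcrb, 1.2% at Cd3, 1.12% at Cd4, 0.533% at Cd8a/Cd8b1 and 0.8% at Rag1/Rag2. The starts of consecutive regions lay a median of 28.9 kb apart over the 32 pairs, and 1 pair overlapped. Sequence between the captured regions was not assayed, so known elements of these loci can be missing from the set. The nearest captured regions on either side of the windows, 12 in all, lay 4.325 to 160.375 kb outside them, except for that before the Rag1/Rag2 window, at 7062 kb. They had folds of 0.413 to 1.64 in replicate 1 and 0.306 to 1.72 in replicate 2. One of them was active, a promoter-class region 11.574 kb before the Cd4 window, chr6:124688426-124688825, at 1.64 and 1.72.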

How the data were processed

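The authors deposited 1 table per RNA replicate, which per the file headers gives the FPKM of the RNA and of the input library, a ratio (fold change) and an active or inactive class named after an inflexion point. The deposited ratio equalled RNA FPKM plus 1 over input FPKM plus 1, to within 4.8e-14, and the input was identical in both tables. The submitters' processing notes list Bowtie2, TopHat2, Bowtie 1.2.2 and mm9 but give no role for each. Reads per region were recovered from FPKM steps (100% of the values of 400 bp regions whole within 0.1 read) and describe depth only.

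Windows were read from the given rule, and regions were kept by start. limma 3.58.1 in R 4.3.3 was fitted to log2(FPKM + 1) of the 3 libraries over all 12897 regions (RNA against input, variance trend on mean level, two-sided). Each RNA library was shifted to the Random median. The input has no replicate and was given the spread of the RNA libraries. The variance of each region was moderated towards that of regions of like mean level. On this scale changes of low regions are understated. Named were regions active or passing (at most 3 a window), those the authors' class called active, the highest and lowest of each window and of the promoter class, and all TSS_Random and Add_Ctl regions. Although the rule for regions uses only position, the loci and lists were chosen with earlier results of these data known. Genes elsewhere in the receptor pathway, and region sequences, were not analysed here, since no mm9 annotation or genome was used. The other 140 samples were not analysed here.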

Additional observations from a re-analysis of the deposited data

How the results depend on the processing

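No paired analysis was possible because both RNA replicates share 1 input library, and limma was not run with 1 replicate, which has no residual degree of freedom. The count above the Random centre, 6 of 38, was 2 without centring (2.61% of all regions) and 0 without the variance trend, a setting in which none of the 12897 regions passed; under the other 7 alternatives it was 4 to 8, where 6.92% to 24% of all regions passed: 4 came with centring on all regions (6.92%) and also without Add_Ctl (13.4%), and 8 with an input free of error (24%). The 2 that passed without centring were the Tcra and Tcrb regions at folds above 5. The count below, 0, was 3 with an input free of error (3.99% of all regions) and 2 with at least 100 input reads (0.807%). Those 2, and 2 of the 3, were the overlapping pair at Rag1/Rag2, 1 sequence in effect. The 3 active regions became 6 in replicate 1 alone and 4 in replicate 2 alone, and 1 without Add_Ctl, an alternative chosen after the data were seen. Leaving out a replicate gave window medians of 0.10 to 0.29 at Tcra, 0.10 to 0.48 at Tcrb, -0.29 to 0.056 at Cd3, -0.28 to -0.14 at Cd4, -0.07 to 0.12 at Cd8a/Cd8b1 and -0.77 to -0.20 at Rag1/Rag2. With at least 100 input reads the median became -0.15 at Tcra and 0.60 at Tcrb, and in windows shortened by 25 kb it became -0.51 at Tcra. Cd4 had -0.10 and -0.12 in these settings, above Tcra in both. At Tcra the setting of at least 100 reads left out the region from 54980026 (38 input reads, mean log2 fold 0.49). The shortened window left out that region and the one from 54988975 (0.20). At Tcrb the setting of at least 100 reads left out the region from 41517125 (87 input reads, -1.25). These medians are over the regions that remained. Why the medians differed between replicates was not tested.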
